A study of Rattus norvegicus with 12 samples.

Results

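The corticosteroid receptors, the enzyme that regenerates active glucocorticoid, and a set of genes that these receptors are known to control were examined in the renal cortex of lean and obese Zucker rats. The set was given as 8 genes, namely Nr3c1, Nr3c2, Hsd11b1, Fkbp5, Tsc22d3, Sgk1, Zbtb16 and Nedd4l. Its rule uses gene names and no measured value of these rats, but the set was chosen with earlier results of these data known. All 8 were among the 13151 genes of the table and passed the filter on low values (1 or more in 4 or more rats), which kept 11633 genes. RNA from the cortex of 12 male rats aged 32 weeks was depleted of ribosomal RNA and sequenced. Zucker lean (ZL) rats were the controls, Zucker fatty (ZF) rats were the obese model, and ZF-SGLT2i rats were ZF rats that received canagliflozin, an inhibitor of the sodium-glucose cotransporter of the proximal tubule, at 10 mg/kg/day from the age of 24 weeks until sampling, a course of 8 weeks, with 4 rats in each group. The submitters' design text calls the ZF rats leptin-deficient, whereas the study's methods call them leptin receptor-deficient, a whole-body lesion that is not limited to the kidney. Canagliflozin was mixed into the food. The study's methods describe earlier open kidney biopsies in a cohort of ZL and ZF rats, the only ZL rats they describe. Treated rats are described in a separate purchase of ZF rats, with no biopsy mentioned. The methods do not say which cohort the sequenced rats came from. A part of biopsy or of cohort in the differences from ZL rats was not tested. Each value is an average over the tubular, glomerular, vascular and interstitial cells of whole cortex, so fewer cells of a type and less RNA per cell cannot be told apart. Reads on genes ranged from 8886901 to 12210257 in ZL rats, from 8824980 to 11191377 in ZF rats and from 8914666 to 10293049 in ZF-SGLT2i rats. Values are CPM (reads per unit of library size) after a scaling factor for each rat, and they are given in the order of the rat numbers, which ran from 1 to 4 among the lean controls, from 2 to 5 in the untreated obese group, and were 2, 3, 4 and 6 under treatment.

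Glucocorticoids and aldosterone act through related nuclear receptors, the glucocorticoid receptor (Nr3c1) and the mineralocorticoid receptor (Nr3c2), which leave a chaperone complex once bound and regulate transcription. In the distal nephron the mineralocorticoid receptor is shielded from glucocorticoid by the inactivating enzyme Hsd11b2, while Hsd11b1 regenerates active glucocorticoid with NADPH made by H6pd. Aldosterone raises sodium reabsorption there partly through the kinase Sgk1, which restrains the ubiquitin ligase Nedd4l and so leaves more epithelial sodium channel (ENaC) at the surface. Fkbp5, Tsc22d3 and Zbtb16 are widely used as readouts of glucocorticoid action, and Fkbp5 itself lowers the affinity of the receptor for hormone.

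The glucocorticoid receptor varied little between rats. Nr3c1 had values of 213, 218, 219 and 210 in ZL, 211, 211, 220 and 202 in ZF, and 208, 197, 197 and 190 in ZF-SGLT2i rats. The ZL and ZF ranges overlapped, and the 4 ZF-SGLT2i rats lay below every ZL rat while overlapping with ZF. Group differences are log2 fold changes of (value + 1) from limma, with Benjamini-Hochberg adjustment over the 11633 genes, and calls were made where the adjusted p fell under 0.05. Nr3c1 was not called in any comparison, with −0.03 ± 0.05 (SE) in ZF against ZL, −0.09 ± 0.05 in ZF-SGLT2i against ZF and −0.12 ± 0.05 in ZF-SGLT2i against ZL rats (adjusted p = 0.744, 0.372 and 0.0884, n = 4 per group). The 95% interval of the last difference ran from −0.22 to −0.01. From highest to lowest, the group means were 215 ± 4.44 (SD) in ZL rats, 211 ± 7.22 in ZF rats and 198 ± 7.50 in the ZF-SGLT2i group, and neither pair of neighbours differed by the test.

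The mineralocorticoid receptor had the opposite order. Nr3c2 values were 92.0, 112, 117 and 83.2 in ZL, 106, 121, 100.2 and 129 in ZF, and 131, 146, 135 and 147 in ZF-SGLT2i rats. All ZF-SGLT2i rats exceeded all rats of both other groups, and the ZL and ZF rats overlapped. Nr3c2 rose 1.39-fold in ZF-SGLT2i relative to ZL rats (log2 fold change 0.48 ± 0.11, adjusted p = 0.0049). The neighbouring steps were not called, with 0.18 ± 0.11 in ZF against ZL (adjusted p = 0.253) and 0.30 ± 0.11 in ZF-SGLT2i against ZF rats (adjusted p = 0.158, 95% interval 0.07 to 0.52). Per rat, the log2 ratio of (Nr3c2 + 1) to (Nr3c1 + 1) averaged −1.10 ± 0.20 (SD) in ZL rats, −0.89 ± 0.21 in ZF rats and −0.50 ± 0.13 in the ZF-SGLT2i group. The ratio was 0.59 higher on the log2 scale in ZF-SGLT2i than in ZL rats, with no overlap (exact two-sided permutation test, p = 0.0286, the smallest that 4 rats against 4 allow). After adjustment over the 6 ratio tests made, this p was 0.0857 and no ratio difference passed. The difference was 0.39 against ZF (exact p = 0.0571, adjusted p = 0.0857) and 0.21 for ZF against ZL (exact p = 0.229, adjusted p = 0.274).

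**Figure D1:**
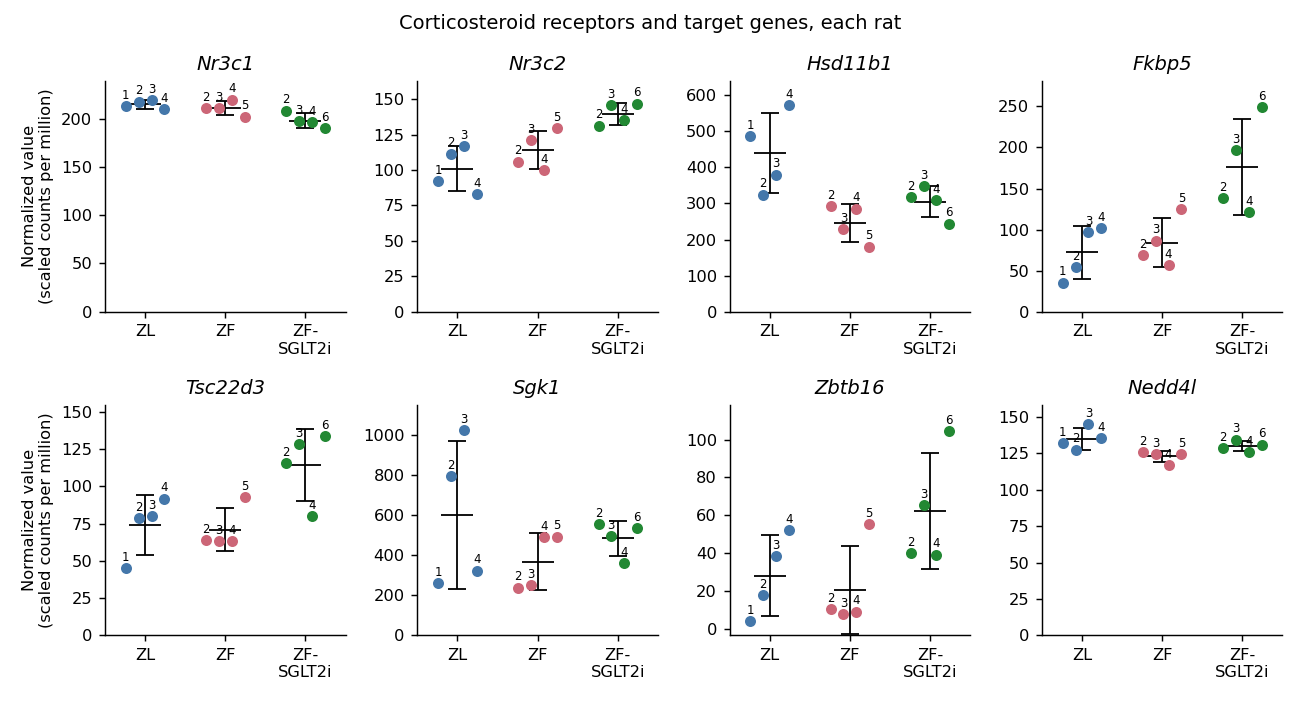
Normalized value (scaled CPM, linear axis) of the 8 genes in each rat, with rat numbers at the points and the mean and SD of each group of 4 as black lines. Nr3c2 of all ZF-SGLT2i rats lies above 131, over all ZL and ZF rats, and ZF rat 5 stands apart from its group in Zbtb16 at 55.4.

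Hsd11b1 was the member that fell in obesity. Its values were 486, 325, 380 and 572 in ZL, 293, 228, 286 and 181 in ZF, and 317, 348, 309 and 244 in ZF-SGLT2i rats. Every ZF rat was below every ZL rat, and the ZF-SGLT2i rats overlapped with both. The mean was 441 ± 110.4 (SD) in ZL, 305 ± 43.6 in ZF-SGLT2i and 247 ± 52.9 in ZF rats. Hsd11b1 in ZF was 0.564 times that in ZL rats (log2 fold change −0.83 ± 0.18, adjusted p = 0.00801), a call that was lost with the replicate number as a block (−0.63, adjusted p = 0.0676). The block keeps ZL rat 1 and ZF rat 5 out of this difference, because each of their numbers occurs in a single group. Between the neighbours ZF-SGLT2i and ZF it was not called, at 0.32 ± 0.18 (adjusted p = 0.401, 95% interval −0.07 to 0.71). Between ZF-SGLT2i and ZL it was −0.51 ± 0.18 and narrowly missed the threshold (adjusted p = 0.0521), which it passed without ZL rat 2 (adjusted p = 0.0176) or ZF rat 5 (adjusted p = 0.0328). It also passed with edgeR, with DESeq2, with array quality weights and in the fit of only the 2 groups (adjusted p = 0.0437, 0.0192, 0.0265 and 0.0439).

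The other genes of steroid access gave no call in ZF against ZL rats by limma. Hsd11b2, the inactivating enzyme, had values of 570, 720, 522 and 472 in ZL, 635, 825, 657 and 873 in ZF, and 717, 806, 846 and 964 in ZF-SGLT2i rats, with the highest ZL rat inside the range of both other groups. It rose 1.47-fold in ZF-SGLT2i against ZL rats (log2 fold change 0.55 ± 0.14, adjusted p = 0.00965), and it was 0.39 ± 0.14 in ZF against ZL (adjusted p = 0.0631) and 0.16 ± 0.14 in ZF-SGLT2i against ZF rats (adjusted p = 0.600). H6pd, the source of NADPH for Hsd11b1, was 207, 225, 224 and 222 in ZL, 215, 212, 205 and 195 in ZF, and 293, 262, 232 and 280 in ZF-SGLT2i rats. All 4 ZF-SGLT2i rats were above all others, and H6pd rose 1.28-fold against ZF (log2 fold change 0.36 ± 0.07, adjusted p = 0.0131) and 1.21-fold against ZL rats (0.27 ± 0.07, adjusted p = 0.0105). In ZF against ZL it was −0.09 ± 0.07 (adjusted p = 0.419). The log2 ratio of (Hsd11b2 + 1) to (Hsd11b1 + 1) exceeded that of ZL rats by 1.22 in ZF and by 1.06 in ZF-SGLT2i rats (exact permutation p = 0.0571 and 0.0286, both 0.0857 after adjustment). It was −0.16 in ZF-SGLT2i against ZF rats (exact p = 0.771, adjusted p = 0.771). Of the 6 tested genes of the steroid access list other than Hsd11b1, which also hold the efflux transporters Abcb1a and Abcb1b and the steroid-converting enzymes Akr1c14 and Srd5a1, limma called 0 in ZF against ZL, H6pd in ZF-SGLT2i against ZF, and Hsd11b2 and H6pd in ZF-SGLT2i against ZL, all of them higher. Of all tested genes, 8.19%, 1.39% and 12.4% were called higher. Over the list with Hsd11b1, limma called 1 gene in ZF against ZL, and 2 were called with DESeq2, with quantile scaling, with array quality weights, and without ZL rat 1, ZL rat 2 or ZF rat 4. In ZF-SGLT2i against ZF limma called 1 and DESeq2 2. With the replicate number as a block, 0 were called in any of the 3 comparisons.

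The readouts of glucocorticoid action were highest in the ZF-SGLT2i group. Fkbp5 values were 35.5, 54.7, 96.5 and 102 in ZL, 69.1, 86.5, 56.4 and 125 in ZF, and 138, 196, 121 and 249 in ZF-SGLT2i rats. The lowest ZF-SGLT2i rat was above every ZL rat, and ZF rat 5 alone of the untreated obese rats reached the treated range. Fkbp5 rose 2.54-fold in ZF-SGLT2i against ZL rats (log2 fold change 1.34 ± 0.33, adjusted p = 0.0084). Against ZF the log2 fold change was 1.06 ± 0.33 with an unadjusted p of 0.00593, which did not pass after adjustment (adjusted p = 0.102), and ZF against ZL was 0.28 ± 0.33 (adjusted p = 0.600).

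Tsc22d3, which encodes an anti-inflammatory leucine zipper protein, had values of 44.9, 78.7, 80.2 and 91.7 in ZL, 64.1, 63.4, 63.3 and 92.5 in ZF, and 116, 128, 79.9 and 134 in ZF-SGLT2i rats. Of the ZF-SGLT2i rats, 3 were above all other rats, and the fourth, rat 4, lay among the ZL and ZF values. Tsc22d3 rose 1.56-fold in ZF-SGLT2i against ZL rats (log2 fold change 0.64 ± 0.21, adjusted p = 0.0353). This call did not survive the removal of ZL rat 1 (adjusted p = 0.0973) or of ZF-SGLT2i rat 2, 3 or 6 (adjusted p = 0.0718, 0.0960 and 0.104), or the replicate block (adjusted p = 0.177). Against ZF the log2 fold change was 0.68 ± 0.21 (adjusted p = 0.104), and ZF and ZL rats were alike in mean, 70.8 ± 14.4 and 73.9 ± 20.2 (SD), with a difference of −0.03 ± 0.21 (adjusted p = 0.938).

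Zbtb16, a zinc finger transcription factor, varied most from rat to rat. It was 3.95, 17.9, 38.3 and 52.3 in ZL, 10.5, 7.72, 9.06 and 55.4 in ZF, and 40.1, 65.4, 39.2 and 104 in ZF-SGLT2i rats, from 44 to 936 reads per rat. The ZF group consisted of 3 rats between 7.72 and 10.5 and rat 5, which was within the ZF-SGLT2i range. In both comparisons of ZF-SGLT2i its log2 fold changes were the widest among the members, and none was called, with 1.92 ± 0.69 against ZF (adjusted p = 0.163, 95% interval 0.43 to 3.40), 1.47 ± 0.69 against ZL (adjusted p = 0.131) and −0.44 ± 0.69 in ZF against ZL rats (adjusted p = 0.702). Without ZF rat 5, Fkbp5, Tsc22d3 and Zbtb16 all passed in ZF-SGLT2i against ZF rats, with log2 fold changes of 1.27, 0.81 and 2.54 (adjusted p = 0.0462, 0.0475 and 0.0355). Without ZL rat 1, whose removal changes only the shared spread of this comparison, Tsc22d3 passed as well (adjusted p = 0.0407). Tsc22d3 also passed there with only those 2 groups in the fit, with array quality weights and by DESeq2 (adjusted p = 0.0400, 0.0441 and 0.0232). Fkbp5 did so with only those 2 groups and with the replicate block (adjusted p = 0.0365 and 0.0373), and Zbtb16 with the block (adjusted p = 0.0189). Against ZL, Zbtb16 passed with array quality weights (adjusted p = 0.0219), and in ZF against ZL with the block (−1.76, adjusted p = 0.0217). The block keeps ZL rat 1, ZF rat 5 and ZF-SGLT2i rat 6 out of all differences between groups, because each of their numbers occurs in a single group. It is therefore not independent of leaving those rats out.

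The promoter windows of Fkbp5 and Tsc22d3 are shown because these genes were the called glucocorticoid readouts. RefSeq windows of the assembly GRCr8, with 250 bases before each annotated start, were matched for 5 of the 8 members, 10 windows in all. The windows below read 5′ to 3′ along the gene. Capitals mark the CCAAT box (CCAAT on either strand) and the TATA box (TATATAA).
Fkbp5, chr20:6543556-6543805, minus strand: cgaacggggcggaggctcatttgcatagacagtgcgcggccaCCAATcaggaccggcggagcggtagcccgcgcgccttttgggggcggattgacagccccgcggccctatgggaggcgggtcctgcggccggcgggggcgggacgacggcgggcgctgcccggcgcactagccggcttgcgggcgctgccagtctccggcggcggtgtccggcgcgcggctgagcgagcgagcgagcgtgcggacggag
Tsc22d3, chrX:109010035-109010284, minus strand: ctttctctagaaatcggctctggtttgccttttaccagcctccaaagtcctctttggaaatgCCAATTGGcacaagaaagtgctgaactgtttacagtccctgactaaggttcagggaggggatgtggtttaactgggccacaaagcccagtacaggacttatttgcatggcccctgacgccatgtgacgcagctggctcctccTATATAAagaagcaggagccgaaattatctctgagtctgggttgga
Of the 3 Tsc22d3 windows, the one shown holds the TATA box. In it, the CCAAT matches of both strands overlap within a single palindrome. The full glucocorticoid response element (TGTTCT preceded by its reverse complement and the spacer NNN, both strands) was in 0 of the 10 member windows and in 0.012% of the 33469 windows of all genes. The single site (TGTTCT, both strands, part of the full element) was in 0 of the 10 and in 17.5% of all. The CCAAT box was in 3 of the 10 windows and in 34.0% of all, the TATA box in 1 of the 10 and in 3.42% of all, and the E-box CACGTG in 0 of the 10 and in 5.59% of all.

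The aldosterone effectors among the members gave no call. Sgk1 was 262, 796, 1027 and 324 in ZL, 238, 252, 489 and 493 in ZF, and 555, 495, 361 and 536 in ZF-SGLT2i rats. The ZL rats were spread most widely and overlapped with both other groups, with rats 2 and 3 above every other animal. The log2 fold change was −0.56 ± 0.39 in ZF against ZL, 0.47 ± 0.39 in ZF-SGLT2i against ZF and −0.10 ± 0.39 in ZF-SGLT2i against ZL rats (adjusted p = 0.337, 0.586 and 0.876). The last of these changed sign when ZL rat 2, ZL rat 3 or ZF-SGLT2i rat 4 was removed (0.11, 0.24 and 0.04), and so the order of the groups in Sgk1 could not be fixed with these rats.

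Nedd4l also had a narrow range. Its values were 132, 128, 145 and 136 in ZL, 126, 124, 117 and 125 in ZF, and 129, 134, 126 and 131 in ZF-SGLT2i rats. The ZF rats lay below all ZL and all ZF-SGLT2i rats, by a narrow margin. The log2 fold change was −0.14 ± 0.05 in ZF against ZL (adjusted p = 0.0877), 0.08 ± 0.05 in ZF-SGLT2i against ZF (adjusted p = 0.456) and −0.05 ± 0.05 in ZF-SGLT2i against ZL rats (adjusted p = 0.482), none of them called.

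**Figure D2:**
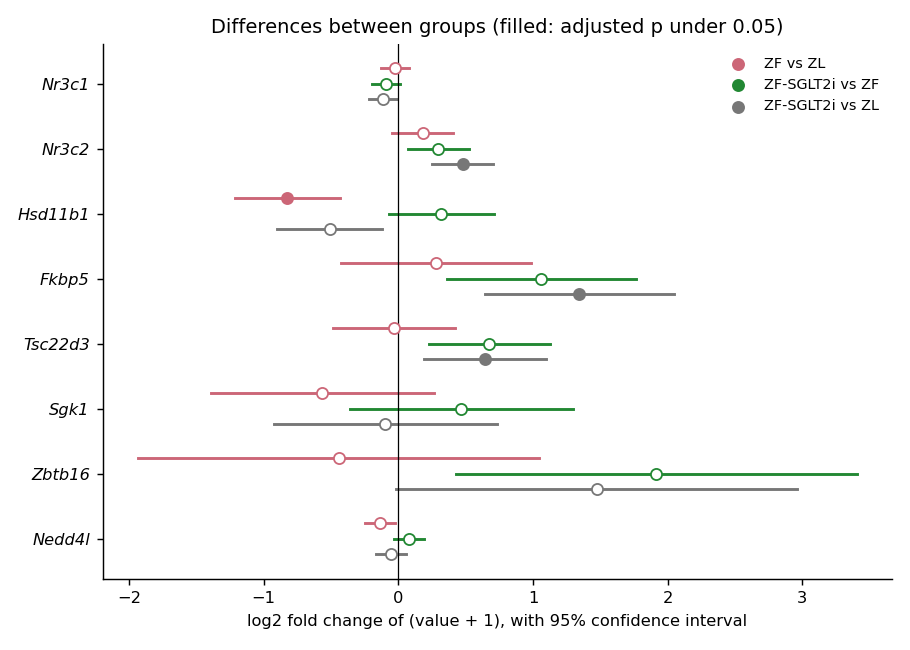
Log2 fold change of (value + 1) of the 8 genes in the 3 comparisons, with 95% confidence intervals from limma and filled points for an adjusted p under 0.05. Filled points are Hsd11b1 in ZF against ZL at −0.83, and Nr3c2 at 0.48, Fkbp5 at 1.34 and Tsc22d3 at 0.64 in ZF-SGLT2i against ZL.

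Counted over the 8 genes, 1 fell and 0 rose in ZF against ZL rats, where 10.6% of all tested genes fell and 8.19% rose. In ZF-SGLT2i against ZF rats 0 of 8 were called by limma, where 1.39% of all genes rose and 1.75% fell. At an unadjusted p under 0.05 there were 4 of the 8, where 17.2% of all genes had one, and DESeq2 called 1, Tsc22d3, whereas edgeR's quasi-likelihood test called 0. In ZF-SGLT2i against ZL rats 3 rose and 0 fell, where 12.4% of all genes rose and 15.0% fell. The groups did not overlap for 2, 2 and 3 of the 8 genes, where all genes gave 19.0%, 11.2% and 28.0%. The median log2 fold change of the 8 was −0.08, 0.39 and 0.21, and that of all genes was within 0.01 of 0 each time. These comparisons share rats, since each group enters 2 of them. Over all genes, 43.6% of the calls in ZF against ZL were higher, and 53.9% after quantile normalization.

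Within the groups, Fkbp5, Tsc22d3 and Zbtb16 varied together from rat to rat. The relation was looked for after the values had been seen, and the share of all tested genes that follow Fkbp5 in this way was not determined. Each rat's log2 deviation from its group mean was used, so that differences between groups did not enter, and Fkbp5 was set against the 7 other members over the 12 rats. Its deviations followed those of Tsc22d3 (Pearson's r = 0.866, exact permutation within groups p = 0.000217, adjusted over 7 relations p = 0.00152; Spearman's rho = 0.923, p = 0.000145, adjusted p = 0.00102). With Zbtb16, r was 0.912 (exact permutation p = 0.00109, adjusted p = 0.00382) and rho was 0.881 (p = 0.00195, adjusted p = 0.00682). Without ZL rat 1 and ZF rat 5, the rats farthest from the median in Fkbp5, r was 0.683 with Tsc22d3 and 0.858 with Zbtb16 over the 10 remaining rats. Over the same 10 rats it was 0.728 with Nedd4l, above that with Tsc22d3, −0.621 with Nr3c1, −0.211 with Sgk1, 0.129 with Nr3c2 and 0.061 with Hsd11b1. The other 5 relations did not pass over the 12 rats, among them Nedd4l (r = 0.655, exact permutation adjusted p = 0.143; rho = 0.636, adjusted p = 0.126), Nr3c1 (r = −0.505, adjusted p = 0.175; rho = −0.510, adjusted p = 0.219) and Sgk1 (r = 0.346, adjusted p = 0.390; rho = 0.196, adjusted p = 0.631).

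**Figure D3:**
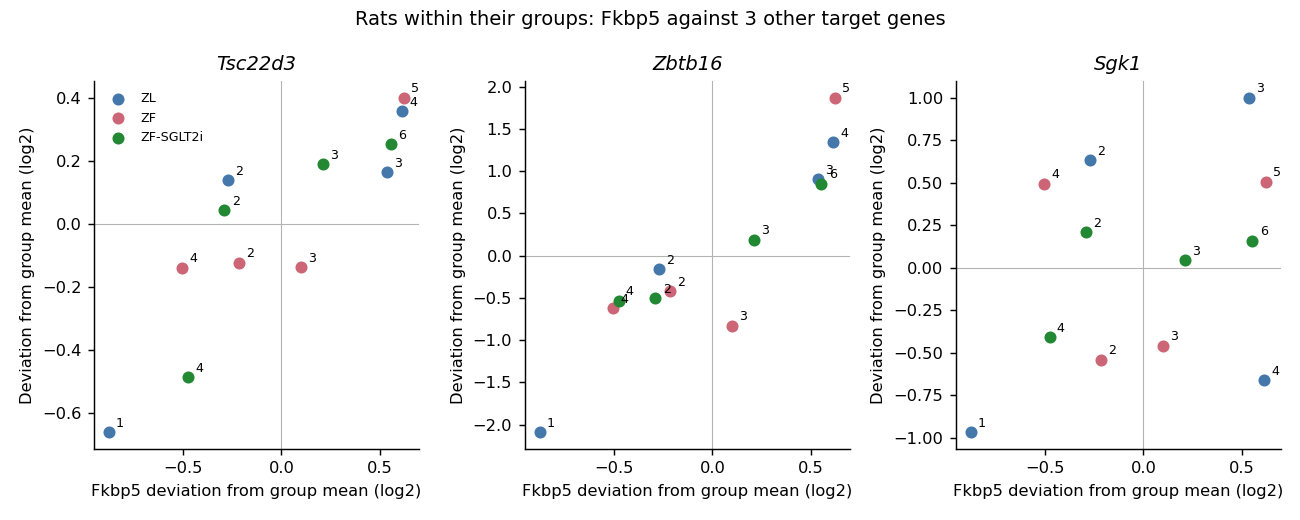
Deviation of each rat's log2(value + 1) from its group mean, Fkbp5 on the horizontal axis and Tsc22d3, Zbtb16 or Sgk1 on the vertical axis, with rat numbers beside the points. Tsc22d3 (r = 0.866) and Zbtb16 (r = 0.912) line up along a diagonal from ZL rat 1 to ZF rat 5, and Sgk1 (r = 0.346) is scattered.

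Clock transcripts were read beside these values because several glucocorticoid targets are also rhythmic. The summed value of the 13 clock genes in the table was 740, 921, 951 and 932 in ZL, 1507, 1622, 1324 and 1781 in ZF, and 1748, 1622, 1760 and 1891 in ZF-SGLT2i rats. This sum adds genes that rose to genes that fell, so it does not measure the phase of the clock. It includes Per1, which is also on the glucocorticoid target list. The lowest ZL rat was rat 1 and the highest ZF and ZF-SGLT2i rats were rats 5 and 6, which also had the lowest ZL, highest ZF and highest ZF-SGLT2i Fkbp5. The ZF rats kept the same order in both, from lowest to highest rats 4, 2, 3 and 5. Within the ZL and ZF-SGLT2i groups the order differed. ZF-SGLT2i rat 3 had the lowest clock sum of its group with Fkbp5 at 196, and ZF-SGLT2i rat 4 had 1760 with the lowest Fkbp5 (121). ZL rat 3 had the highest ZL clock sum, while Fkbp5 was highest in ZL rat 4. Of the 13, 8 rose and 3 fell in ZF against ZL, 0 were called by limma in ZF-SGLT2i against ZF (2 at an unadjusted p under 0.05, beside 17.2% of all genes), and 9 rose and 3 fell in ZF-SGLT2i against ZL rats, beside shares over all genes of 8.19% higher and 10.6% lower, and of 12.4% and 15.0%. Arntl, the core activator of the clock, averaged 43.1 ± 9.21 (SD) in the lean rats, 3.59 ± 2.45 in the untreated obese rats and 2.43 ± 0.46 in the treated rats, and its output gene Dbp 40.7 ± 17.6, 254 ± 52.0 and 297 ± 31.6. Tef, the most abundant gene of the list, is a further output factor. The hour of tissue collection is not given in the sources used here, and the part of the clock in the glucocorticoid readouts was not tested.

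Among the other genes of the receptor complex, Hsp90aa1, Hsp90ab1 and Fkbp4 fell in both obese groups against ZL rats. Of 9 tested genes outside the members, 3 fell in ZF against ZL, 1 fell in ZF-SGLT2i against ZF, and 5 fell in ZF-SGLT2i against ZL rats, beside 10.6%, 1.75% and 15.0% of all tested genes, while 0 rose in any of them. Hsp90aa1, the inducible form of the chaperone that holds the receptors ready for hormone, was 429 ± 22.6 (SD) in ZL rats, 327 ± 25.1 in ZF rats and 262 ± 17.3 in the ZF-SGLT2i group, without overlap between any groups. It fell by 0.39 ± 0.07 on the log2 scale in ZF against ZL, by 0.31 ± 0.07 in ZF-SGLT2i against ZF and by 0.71 ± 0.07 in ZF-SGLT2i against ZL rats (adjusted p = 0.00255, 0.0264 and 1.99e-05). The second of these was the only call of the list in that comparison, and 0 remained without ZF rat 2 or 4 or without ZF-SGLT2i rat 2, 3 or 6, and 2 were called without ZF rat 5 or with only those 2 groups in the fit. In ZF against ZL DESeq2 called 5 of the list. The constitutive form Hsp90ab1 fell by 0.25 and 0.35 in the ZF and ZF-SGLT2i groups against ZL (adjusted p = 0.0148 and 0.00141). Fkbp4, the cochaperone that favours nuclear transport of the receptor and competes with Fkbp5, fell by 0.37 and 0.53 in the same comparisons (adjusted p = 0.00307 and 0.000124), while Fkbp5 rose in the second. Stip1 and Ptges3, cochaperones of the same cycle, also fell in ZF-SGLT2i against ZL rats, and the chaperone Hspa8 was not called in any comparison (−0.11, −0.19 and −0.29, adjusted p = 0.544, 0.427 and 0.0651).

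Most genes of the wider list of glucocorticoid targets were not called. Of 24 tested genes outside the members, 4 rose and 3 fell in ZF against ZL, 6 rose and 0 fell in ZF-SGLT2i against ZF, and 7 rose and 2 fell in ZF-SGLT2i against ZL rats. Of all tested genes, 8.19% rose and 10.6% fell in the first comparison, 1.39% and 1.75% in the next, and 12.4% and 15.0% in the last. Their median log2 fold change was −0.03, 0.18 and 0.28, and 18 of the 24 were positive in each comparison of ZF-SGLT2i. In ZF-SGLT2i against ZF the largest rises were Pdk4, an inhibitor of glucose oxidation, at 1.32 ± 0.20 (adjusted p = 0.00315), the transcriptional repressor Bcl6 at 1.14 ± 0.19 (adjusted p = 0.00553), and the metallothionein Mt2A at 0.99 ± 0.18 (adjusted p = 0.00859). Values did not overlap for any of these 3, and Pdk4 spanned 4.81 to 7.26 without treatment and 10.7 to 23.3 with it. Bcl6 and the metabolic regulator Klf15 had fallen in ZF against ZL, by 0.64 ± 0.19 and 0.40 ± 0.12 (adjusted p = 0.0311 and 0.0359), as had the EGFR inhibitor Errfi1, by 0.42 ± 0.13 (adjusted p = 0.0427).

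The rises in ZF against ZL were led by Lcn2, also a marker of tubular injury, from 2.67 ± 0.52 (SD) to 10.8 ± 7.28 (log2 fold change 1.50 ± 0.40, adjusted p = 0.0211). Pck1, the gluconeogenic enzyme, rose by 0.71 ± 0.21 (adjusted p = 0.0288) and Igfbp1 by 0.47 ± 0.11 (adjusted p = 0.0120). In ZF-SGLT2i against ZL rats the lipase inhibitor Angptl4 rose by 1.74 ± 0.38, Pck1 by 1.30 ± 0.21 and the clock gene Per1 by 1.25 ± 0.39 (adjusted p = 0.00478, 0.00063 and 0.0273), while Errfi1 fell by 0.46 ± 0.13 and the proximal sodium-proton exchanger Slc9a3 by 0.35 ± 0.09 (adjusted p = 0.0222 and 0.0101). Klf9 and Dusp1, both direct targets of the receptor, were not called in any comparison. Klf9 had 0.21 ± 0.14 and Dusp1 0.16 ± 0.11 in ZF-SGLT2i against ZF rats (adjusted p = 0.497 and 0.521). The count for the whole list of 28 tested genes, members included, was 7 in ZF against ZL, and it was 12 without ZL rat 2, 4 without ZL rat 3, 3 without ZL rat 4, 2 without ZF rat 2, 3 without ZF rat 3, 4 without ZF rat 5 and 4 with only those 2 groups in the fit. In ZF-SGLT2i against ZF it was 6, and 10 without ZF rat 5 or with array quality weights, which also raised it from 11 to 19 in ZF-SGLT2i against ZL.

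**Figure D4:**
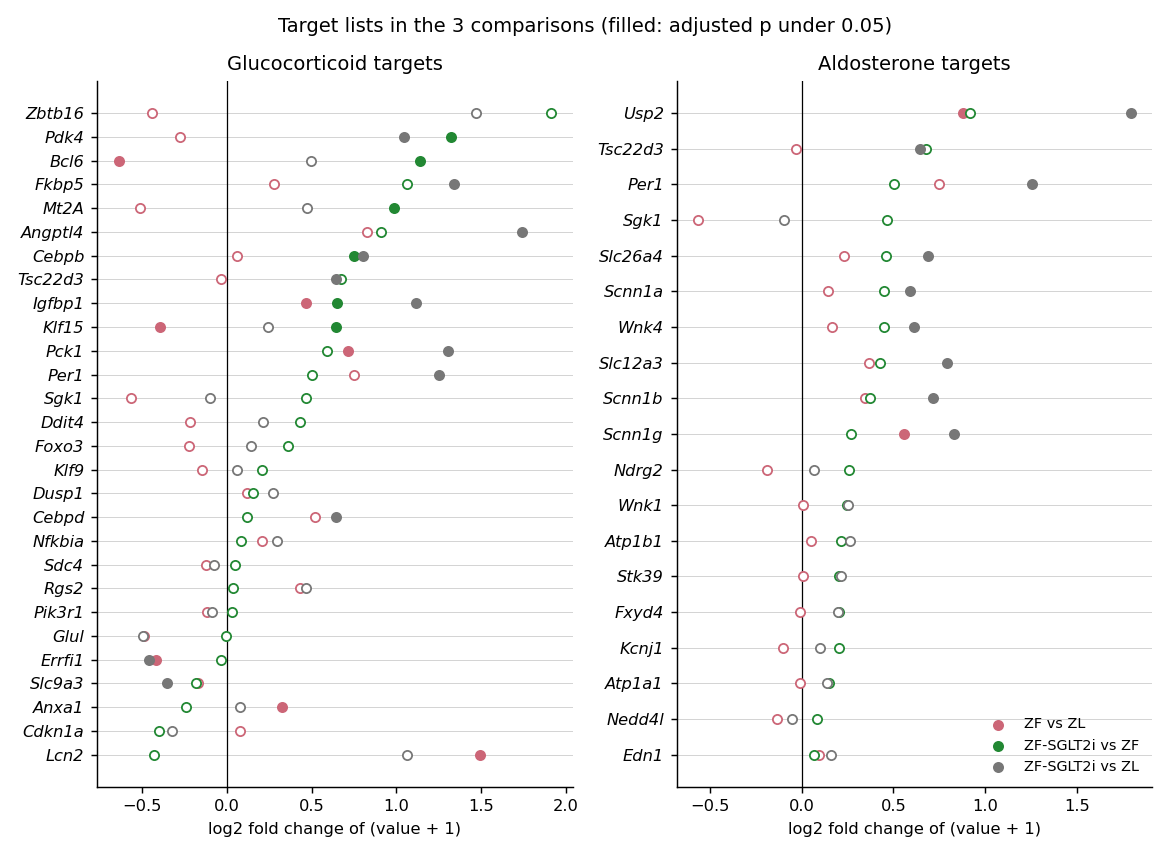
Log2 fold change of (value + 1) for the tested genes of the glucocorticoid (28) and aldosterone (19) target lists, members included, in the 3 comparisons, with filled points for an adjusted p under 0.05. The genes are sorted by ZF-SGLT2i against ZF, in which 6 glucocorticoid targets and 0 aldosterone targets are filled.

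In the aldosterone list, the rises called by limma with all 3 groups were against ZL rats, and other settings also called genes against ZF rats. Of its 16 tested genes outside the members, 2 rose in ZF against ZL, 0 were called by limma in ZF-SGLT2i against ZF, and 8 rose in ZF-SGLT2i against ZL rats, while 0 fell in any of them. The share of all tested genes that rose was 8.19%, 1.39% and 12.4%. All 16 had a positive log2 fold change in ZF-SGLT2i against ZF rats, with a median of 0.26, and the values did not overlap for 7 of them, beside 11.2% of all tested genes. The deubiquitinase Usp2, also a clock output, was 20.3 ± 6.72 (SD) in ZL rats, 38.2 ± 14.4 in ZF rats and 70.1 ± 10.0 in the ZF-SGLT2i group. It rose by 0.88 ± 0.25 in ZF against ZL and by 1.79 ± 0.25 in ZF-SGLT2i against ZL rats (adjusted p = 0.0276 and 0.000279), and it was 0.92 ± 0.25 against ZF (adjusted p = 0.0676). Scnn1g, the gamma subunit of ENaC, was 95.3 ± 8.02, 142 ± 24.95 and 171 ± 22.6, and it rose by 0.56 ± 0.12 and 0.83 ± 0.12 against ZL (adjusted p = 0.00649 and 0.000315). At an unadjusted p under 0.05 there were 9 of the 16 in ZF-SGLT2i against ZF, beside 17.2% of all genes. Calls over the whole list of 19 numbered 2 in ZF against ZL, and 1 without ZL rat 1, ZF rat 2, ZF rat 3 or ZF rat 5, with only those 2 groups in the fit, and with the replicate block. They numbered 0 in ZF-SGLT2i against ZF by limma with all 3 groups and by edgeR. They numbered 4 with only those 2 groups in the fit, 3 with array quality weights, 2 with the replicate block, 2 by DESeq2, and 1 to 4 without ZL rat 1, 3 or 4 or ZF rat 5.

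**Figure D5:**
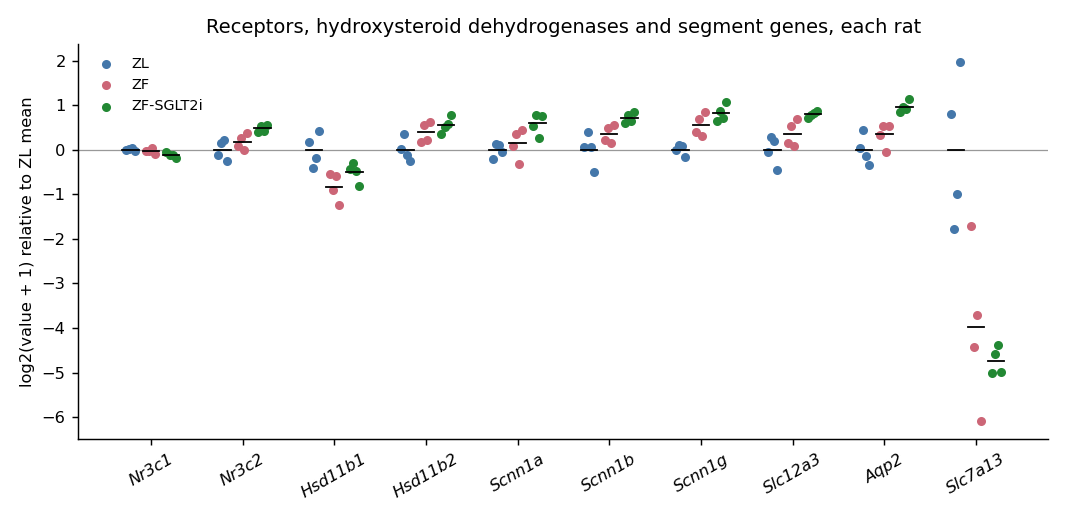
Each rat's log2(value + 1) relative to the ZL mean for both receptors, both hydroxysteroid dehydrogenases, ENaC subunits, the distal cotransporter Slc12a3, the principal cell gene Aqp2 and the proximal straight tubule gene Slc7a13, with group means as black lines. Nr3c2 and the distal genes sit above 0 in all 4 ZF-SGLT2i rats, and Hsd11b1 and Slc7a13 sit below.

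Markers of the segments that carry these genes were read beside them, with their counts and sums given by list. These lists are not separate from the pathway lists. The principal cell list shares Hsd11b2 with the steroid access list and Scnn1g and Fxyd4 with the aldosterone list. Slc12a3 of the distal list is in the aldosterone list as well. The principal cell list, led by Hsd11b2 and holding Aqp2 and Scnn1g, had 1 of 7 higher in ZF against ZL, 1 in ZF-SGLT2i against ZF and 6 in ZF-SGLT2i against ZL rats, where 8.19%, 1.39% and 12.4% of all tested genes were higher and 10.6%, 1.75% and 15.0% lower. Its sum was 1341 ± 269.9 (SD) in ZL rats, 1727 ± 275.7 in ZF rats and 2222 ± 247.6 in the ZF-SGLT2i group, and Aqp2, the vasopressin-regulated water channel, was 443 ± 109.8, 558 ± 98.8 and 852 ± 77.2. The 4 distal convoluted and connecting tubule markers, led by Slc12a3, summed to 3219 ± 767.8, 3578 ± 705.0 and 4560 ± 227.5, with 0, 0 and 1 called higher. The proximal tubule list, led by Lrp2, summed to 19599 ± 936 in ZL rats, 15588 ± 1766 in ZF rats and 13615 ± 1532 in the ZF-SGLT2i group, with 1 of 6 higher and 1 lower, 0 and 1, and 0 and 2 in the same order of comparisons. In ZF against ZL the gene called higher was Slc22a6 (0.33, limma adjusted p = 0.0403) and the gene called lower was Aqp1 (−0.47, adjusted p = 0.0267). Lrp2 was not called there (−0.47, limma adjusted p = 0.0731) and was called lower in ZF-SGLT2i against ZL rats (−0.75, adjusted p = 0.00573).

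Genes of the proximal straight tubule list fell in both obese groups against ZL rats. Of its 4 genes, 3 fell in ZF against ZL, 0 were called against ZF, and 3 fell in ZF-SGLT2i against ZL rats, beside 10.6%, 1.75% and 15.0% of all tested genes. Slc7a13, its most abundant gene, was 780 ± 806 (SD) in ZL rats, 52.9 ± 64.6 in ZF rats and 17.5 ± 4.00 in the ZF-SGLT2i group. The list summed to 932, 209, 316 and 1999.7 in ZL rats, which had Hsd11b1 values of 486, 325, 380 and 572. In ZF rats it summed to 205, 57.5, 92.4 and 43.6, beside Hsd11b1 of 293, 228, 286 and 181. Within each of these groups the rats had the same order in both. In ZF-SGLT2i rats the order differed, with sums of 49.6, 59.9, 64.0 and 43.1 beside Hsd11b1 of 317, 348, 309 and 244. The mean sum was 99.7 in ZF and 54.2 in ZF-SGLT2i rats, while mean Hsd11b1 was 247 and 305. The part of segment content in the differences of Hsd11b1, Nr3c2 and the aldosterone list was not tested.

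Other cell types were also read, against the same shares of all genes called higher (8.19%, 1.39% and 12.4%) or lower (10.6%, 1.75% and 15.0%). Fibroblast markers, led by Pdgfra, summed to 402 ± 53.4 (SD), 499 ± 106.5 and 322 ± 12.2 in the 3 groups, ZL first and ZF-SGLT2i last, with 2 of 4 tested higher in ZF against ZL and 2 lower in each comparison of ZF-SGLT2i. Leukocyte markers, led by Lyz2, summed to 186 ± 27.5, 272 ± 53.0 and 228 ± 69.9, with 0, 0 and 1 of 5 called, the last lower. Adipocyte markers summed to 36.3 ± 15.9, 15.4 ± 4.69 and 17.6 ± 1.50, led by Adipoq, with 1 of 2 tested lower in each obese group against ZL. The gene called was Cidec, with means of 22.1, 4.12 and 2.99 (limma adjusted p = 0.0187 and 0.0125). Within the ZL and ZF groups Cidec had the same order of rats as Slc7a13, and in ZF-SGLT2i rats the order differed. The sum is therefore not read as adipocyte content. Adipoq was not called, with means of 13.9, 11.0 and 14.3. Plin1 and Cfd had 0 to 4 reads per rat. Adrenal cortex genes, which would mark adherent adrenal tissue, summed to 3.59 or less in every rat and none passed the filter. Cyp21a1, the most abundant of them, had 4 to 29 reads per rat, and Cyp11a1 had 0 to 3. Cyp11b1, Cyp11b2 and Nr5a1 were not analysed here. Immediate early genes, led by Jun, rose in 3, 1 and 7 of 10 in the same order of comparisons, with sums of 471 ± 88.6, 538 ± 22.7 and 613 ± 80.6, and their part in the target lists was not tested.

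For each called member, the nearest profiles were taken as the smallest root mean square distance in centred log2(value + 1) over the 12 rats, among 8631 genes with a mean value of at least 10. Nearest to Hsd11b1 were Cat, the peroxisomal catalase, at 0.133 and Abhd14a at 0.135, and Cat was 1386 ± 269.4 (SD) in ZL rats, 780 ± 118.2 in ZF rats and 869 ± 98.0 in the ZF-SGLT2i group. Nearest to Nr3c2 were Slit2, a secreted guidance protein, at 0.0791 and Ampd3, an AMP deaminase, at 0.0846. Profiles near Fkbp5 lay farther off, with Myzap at 0.310 and Rgcc at 0.313, as did those near Tsc22d3, with the repressor Zhx3 at 0.187 and Rapgef5, a guanine nucleotide exchange factor, at 0.209. For scale, the root mean square of the member itself was 0.432 for Hsd11b1, 0.246 for Nr3c2, 0.758 for Fkbp5 and 0.440 for Tsc22d3.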

How the data were processed

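Total RNA of whole renal cortex was depleted of ribosomal RNA and sequenced as strand-specific paired-end libraries, one for each of 12 rats grouped by their labels. The submitters' processing notes name Trimmomatic 0.38, Bowtie2, RSEM 1.3.0, edgeR and the build rn6, with no roles given. The authors deposited a table of normalized signal values, in which each value was a whole number of reads (within 0.01 reads, 100% of values) times a constant for the rat, as in CPM after scaling, so the read counts could be recovered. Depth is given with the samples, and counting error is widest where a gene has few reads. The ribosomal genes, 2 in number, took 7.25% to 15.2% of the reads. RSEM shares reads among similar genes, and close paralogs such as Hsp90aa1 and Hsp90ab1 could not be checked for this.

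Groups were compared with limma 3.58.1 (R 4.3.3), by a fit of log2(value + 1) in the 3 groups together with eBayes and trend, for the 11633 of 13151 genes that reached 1 in 4 or more rats. Adding 1 understates the fold changes of low genes. P-values were two-sided and adjusted by the Benjamini-Hochberg method over these genes, and a gene was called under 0.05. No litters or sequencing batches are stated, so p-values measure the spread between these rats. The methods describe ZL rats and treated rats in different cohorts, and the p-values do not cover a difference between cohorts. No rats of a group were copies, with a chi-square per gene of 5.63 or more between them. Ratios were tested by exact permutation over 70 assignments with scipy 1.17.1, and deviations over the 13824 orders within groups. The limma, edgeR 4.0.16 and DESeq2 1.42.0 steps were also tested on simulated data.

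The rule for the members names genes only, but members and gene lists were chosen with earlier results of these data known. Genes named are the members, Hsd11b2, H6pd, Per1, Klf9 and Dusp1, up to 3 called rises and falls per pathway list and comparison, the most abundant gene of each marker list, and the 2 nearest profiles of each called member. Other marker and target genes named were chosen after their values were seen. Listed genes without a row, such as Tat and Mt1, were not analysed here, and 1 gene of a pathway list is not reported here. Alternatives were a pseudocount of 0.1, no filter, a mean of at least 10, median-of-ratios and quantile scaling, a fit of 2 groups only, a replicate block, array quality weights, edgeR and DESeq2 on the recovered reads, and each rat left out.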

Additional observations from a re-analysis of the deposited data

Results flagged for a closer look

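In groups of 4 rats, a rat was taken as standing apart by Dixon's test at 95%. Over 28 genes and 84 groups, 5 were found, where chance gives about 4.2. ZF rat 5 stood above its group in Tsc22d3, at 92.5 against 63.3 to 64.1 in the others. The same rat had Zbtb16 at 55.4 against 7.72 to 10.5, and Klf15 at 84.3 against 65.0 to 66.8. Nedd4l was low in ZF rat 4, at 117 against 124 to 126. H6pd was low in ZL rat 1, at 207 against 222 to 225.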

How the results depend on the processing

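Of 528 repeated values of the members (24 differences under 22 alternatives), 486 kept their direction and side of the threshold, 18 changed direction, 18 newly passed and 6 no longer passed. The calls of Fkbp5 and Nr3c2 in ZF-SGLT2i against ZL held in all 22 alternatives. Quantile normalization turned Nr3c1 (0.075) and Tsc22d3 (0.016) in ZF against ZL and Sgk1 (0.10) and Nedd4l (0.037) in ZF-SGLT2i against ZL, and array quality weights turned Tsc22d3 (0.13) in ZF against ZL and Sgk1 (0.19) in ZF-SGLT2i against ZL. The cause was not tested, and none of these was called. With rats left out in turn, the log2 fold change in ZF against ZL ranged from −0.014 to 0.48 for Fkbp5, from −0.25 to 0.087 for Tsc22d3 and from −1.14 to 0.0033 for Zbtb16, that of Sgk1 in ZF-SGLT2i against ZL from −0.42 to 0.24, and the Hsd11b2 ratio difference in ZF-SGLT2i against ZF from −0.33 to 0.064.

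Members called in ZF-SGLT2i against ZF numbered 0, but 2 in the fit of 2 groups only, 1 with array quality weights and 1 with DESeq2, and 0 to 3 with rats left out. In ZF-SGLT2i against ZL they numbered 3, and 5 with array quality weights. All genes called numbered 2185 in ZF against ZL (1384 to 2453 with rats left out), 366 in ZF-SGLT2i against ZF (176 to 569, with 569 without ZF rat 5; 689 with array quality weights and 641 with DESeq2) and 3184 in ZF-SGLT2i against ZL (2238 to 3302).

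The rat numbers did not pair the rats. Same-numbered rats of 2 groups had correlated deviations of −0.38 to 0.25 over 9 pairs, 2 of them over 0.1, and 1 of 9 rats correlated best with its own number. With the replicate block, 807, 223 and 1502 genes were called in the 3 comparisons, and 1, 2 and 2 members. In ZF against ZL the block gave Zbtb16 (−1.76, adjusted p = 0.0217) in place of Hsd11b1 (−0.63, adjusted p = 0.0676) and turned Fkbp5 to −0.22, it gave Fkbp5 and Zbtb16 in ZF-SGLT2i against ZF (adjusted p = 0.0373 and 0.0189), and Tsc22d3 in ZF-SGLT2i against ZL no longer passed (adjusted p = 0.177). Under the block, ZL rat 1, ZF rat 5 and ZF-SGLT2i rat 6 do not enter the comparisons, as each of their numbers occurs in a single group.

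Zbtb16, at 44 reads in its lowest rat, has the widest counting error of the members.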
